A study of Mus musculus with 6 samples.

Results

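The genes described here are 10 components of the cytosolic heat shock machinery, taken by name from the 55357 genes of the deposited table: the HSP70 genes Hspa8, Hspa1a and Hspa1b, their partners Hsph1, Dnajb1 and Bag3, the HSP90 genes Hsp90ab1 and Hsp90aa1, the HSP90 co-chaperone Cdc37, and the small heat shock protein gene Hspb1. Each of the 10 was found once, and all 10 were among the 15280 genes with a mean of at least 10 normalized counts that were tested. RNA was sequenced from 6 cultures of mouse cortical astrocytes, prepared from C57BL/6 embryos and purified by shaking off loosely attached cells. In 3 of them (KE), a plasmid carrying FLAG-BRAF KE, the K499E variant of the kinase BRAF, under the CMV promoter had been introduced 48 hours before harvest. The other 3 were nontransfected (NT). The treatment text of all 6 labels describes the transfection, and the titles and treatment fields separate the groups. Neither an empty plasmid nor BRAF WT is represented among the cultures analysed here, so an effect of BRAF KE and one of plasmid transfection cannot be told apart. The CMV promoter is not restricted to astrocytes, and the share of cells that took up the plasmid is not given in the sources used here. Nothing states that the cultures of a group came from separate animals, and the p-values measure only the spread between these cultures.

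HSP70 and HSP90 are ATP-driven chaperones of the cytosol. HSP70 holds unfolded segments of new or damaged proteins, J-domain proteins such as DNAJB1 hand it clients and stimulate its ATPase, and nucleotide exchange factors such as HSPH1 and BAG3 release them. HSP90 acts later, on nearly folded clients, and CDC37 recruits protein kinases to it, RAF kinases among them. In astrocytes as in other cells, some of these genes (Hspa8, Hsp90ab1) are transcribed at all times, whereas others (Hspa1a, Hspa1b, Hspb1) are known for their induction by the heat shock factor HSF1 during proteotoxic stress.

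The deposited values are estimated read counts divided by a size factor per culture (normalized counts). Their totals were 30472429 to 30895529 in the 6 cultures, and the approximate depth was 24500000 reads in KE replicate 2, the shallowest, and 29500000 to 34100000 in the others. Braf was 36979 ± 3464 (SD, n = 3) in KE and 894 ± 73.1 in NT. Among astrocyte markers, Slc1a3, Glul and Gfap were abundant (means of 47360, 46523 and 31508 in KE and 39859, 35700 and 17292 in NT), while S100b was low at 17.7 and 26.7. Of the 10 astrocyte markers 7 were called higher in KE and 1, Gja1, lower (log2FC -0.46), Aqp4 was at 0.02, and their sum was 194520 to 200350 in KE and 142100 to 150690 in NT. All 12 microglia and macrophage markers were lower in KE, among them C1qa and Itgam (log2FC -3.12 and -4.07), and their summed level was 4847 to 6823 in KE and 41488 to 48446 in NT. Of 9 oligodendrocyte lineage markers 7 were called lower, and the most abundant were Olig1, Olig2 and Pdgfra (log2FC -0.20, -0.55 and -0.87). These 9 summed to 27118 to 31887 in KE and 35982 to 36234 in NT. The 9 neuron markers summed to 6139 to 6608 in KE and 7729 to 8310 in NT, with Map2, Tubb3 and Gad1 highest (log2FC -0.51, 0.43 and 0.50). Map2 made up most of that sum, and of 7 neuron markers tested 2, Nefl (log2FC 1.73) and Tubb3, were called higher and 1, Map2, lower, with a median log2FC of 0.43. Rbfox3 and Slc17a7 did not reach a mean of 10. The 9 fibroblast and vascular markers summed to 2072 to 2239 in KE and 1827 to 2044 in NT, with Lum, Col1a2 and Pdgfrb highest (log2FC 0.39, 0.37 and -0.21) and Cldn5 and Cdh5 below a mean of 10; of the 7 tested 3 were called higher and 2 lower. These are bulk cultures, in which fewer cells of a type and less RNA per cell cannot be told apart, and the part of these shifts in the chaperone values was not tested.

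Compared with NT, BRAF KE–transfected cultures had higher transcript levels of Hspa1a, Hspa1b, Hspb1 and Bag3 and slightly lower levels of Hspa8. Hspa1a and Hspa1b were 4.12 and 3.76 times as high in KE, Hspb1 2.45 times and Bag3 1.51 times, each in 3 of 3 cultures. Hspa8 was lower in KE, at 0.839 times the NT mean. Dnajb1, Cdc37, Hsp90ab1, Hsp90aa1 and Hsph1 were not called, and all 5 means differed by less than 10% between the groups. In the limma fit over all 15280 genes (Benjamini-Hochberg adjusted p under 0.05), 4 members were thus called higher, where 25.3% of all tested genes were, and 1 was called lower, where 26% were. The total of 5 of 10 is close to the 51.3% called over all genes, so the count of calls does not set the members apart. A call with an absolute log2FC under 0.5 was found for 1 member, Hspa8, and for 25.4% of tested genes. The groups did not overlap in 6 of the 10, against 59.9% of all tested genes: KE lay wholly above NT in 4 (30.1% of tested genes) and wholly below in 2 (29.9%). A call with a log2FC above 1 was found for 3 members and for 4.74% of tested genes, and 2 of those 3, Hspa1a and Hspa1b, share most of their sequence. The members were chosen with earlier results of these data known, so this contrast can reflect the choice. The members' median log2FC was 0.08, from -0.25 to 2.03, and the median over all tested genes was 0.0018.

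**Figure D1:**
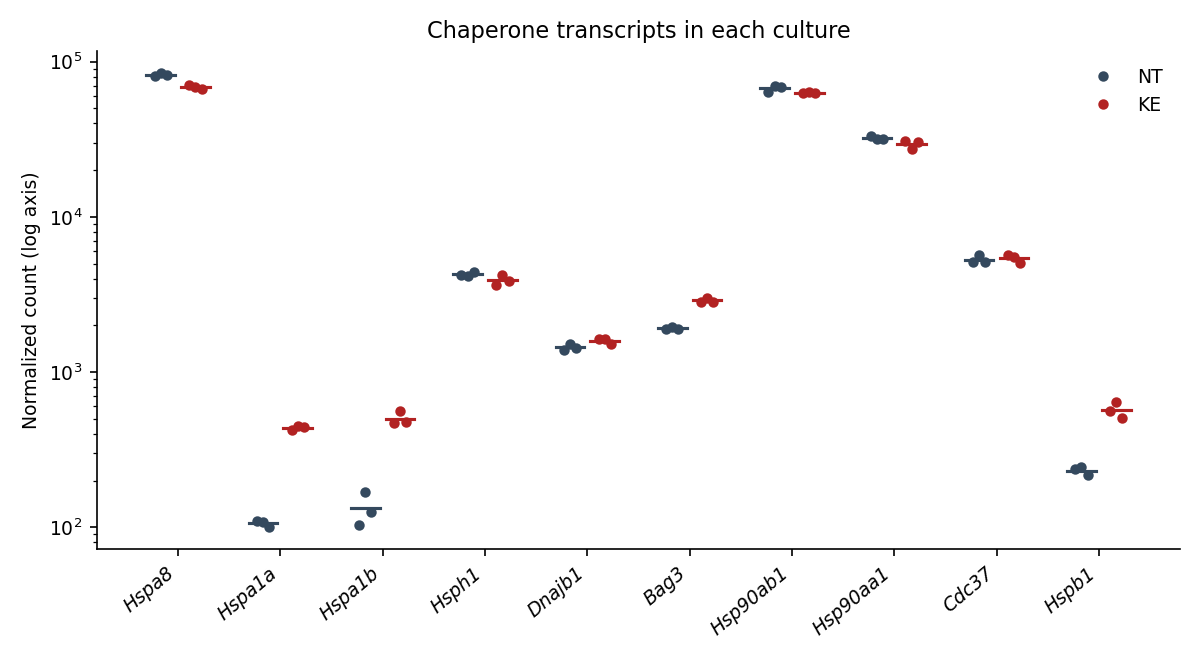
Normalized count (log axis) of the 10 members in the 3 NT (dark) and 3 KE (red) cultures, with 1 point per culture and a line at each group mean. The KE points of Hspa1a, Hspa1b, Hspb1 and Bag3 lie wholly above the NT points, those of Hspa8 and Hsp90aa1 lie wholly below, and the remaining members overlap.

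Among the HSP70 genes, Hspa1a and Hspa1b encode the inducible HSP70 and are neighbours on chromosome 17 (GRCm39), both on the minus strand, Hspa1a (ENSMUSG00000091971) from 35188166 to 35191132 and Hspa1b (ENSMUSG00000090877) from 35175412 to 35178214. Each is a single exon. Hspa1a was 422, 448 and 442 normalized counts in KE replicates 1, 2 and 3 and 110, 108 and 101 in NT replicates 1, 2 and 3. The 6 values fell into a high KE group and a low NT group with little spread within either. The log2FC was 2.03 (standard error 0.11, 95% confidence interval 1.79 to 2.27, adjusted p = 1.1e-07), higher than that of 98.7% of tested genes. Hspa1b was 468, 559 and 476 in KE and 104, 170 and 126 in NT. NT replicate 2 stood above the other NT cultures but well below every KE culture. The log2FC of Hspa1b was 1.93 (standard error 0.17, 95% confidence interval 1.56 to 2.30, adjusted p = 3.5e-06).

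How reads were split between these 2 genes is uncertain, because their transcripts are largely the same. Of the 31-base words of the Hspa1a transcript, 63.8% also occur in Hspa1b transcripts, and 67.6% of those of Hspa1b occur in Hspa1a. Hspa1b held 51.9% to 55.5% of the pair's normalized counts in KE and 48.6% to 61.2% in NT, without a separation of the groups. Their sum does not depend on the division. It was 890, 1007 and 918 in KE and 214, 277 and 227 in NT, and fitted as 1 gene it had a log2FC of 1.97 (adjusted p = 1.4e-07). The neighbouring HSP70 gene Hspa1l holds 12.1% of the Hspa1a words. A long noncoding RNA gene, Gm20481, overlaps Hspa1a on the other strand, and the strand setting of the counting is not given in the sources used here.

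The 250 bases before the start of the annotated canonical transcript (Gencode vM39) are shown for the 4 members that rose, because heat shock factors bind inverted repeats of the pentamer nGAAn in the promoters of such genes. Capitals mark each match to GAANNTTC or TTCNNGAA, 2 adjoining repeats, where N is any base; each motif reads the same on both strands. Both copies of the HSP70 gene and Hspb1 are on chromosomes 17 and 5, and Bag3 is on chromosome 7, all in GRCm39.
Hspa1a (chr17:35191133-35191382, minus strand): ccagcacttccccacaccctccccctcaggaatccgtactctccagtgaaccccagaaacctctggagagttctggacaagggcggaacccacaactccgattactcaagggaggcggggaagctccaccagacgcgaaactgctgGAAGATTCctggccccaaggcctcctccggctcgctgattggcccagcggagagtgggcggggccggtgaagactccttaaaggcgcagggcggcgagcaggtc
Hspa1b (chr17:35178215-35178464, minus strand): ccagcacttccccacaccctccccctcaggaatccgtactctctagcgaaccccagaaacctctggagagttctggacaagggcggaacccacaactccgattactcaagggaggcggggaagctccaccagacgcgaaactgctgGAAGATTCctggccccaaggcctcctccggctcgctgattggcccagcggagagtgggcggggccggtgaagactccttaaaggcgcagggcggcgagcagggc
Hspb1 (chr5:135916510-135916759, plus strand): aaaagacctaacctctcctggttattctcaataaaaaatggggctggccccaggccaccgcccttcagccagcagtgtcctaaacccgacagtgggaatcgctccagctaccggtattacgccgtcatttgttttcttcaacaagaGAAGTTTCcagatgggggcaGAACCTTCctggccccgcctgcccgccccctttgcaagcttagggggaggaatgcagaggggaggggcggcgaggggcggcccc
Bag3 (chr7:128125033-128125282, plus strand): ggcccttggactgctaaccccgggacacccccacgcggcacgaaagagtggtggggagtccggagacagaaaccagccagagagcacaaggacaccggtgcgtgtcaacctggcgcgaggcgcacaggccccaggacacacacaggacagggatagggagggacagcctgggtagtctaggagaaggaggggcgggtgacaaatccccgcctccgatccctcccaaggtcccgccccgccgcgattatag
The windows of Hspa1a and Hspa1b differ at 3 of 250 positions, and both hold the match GAAGATTC 97 to 104 bases before the transcript start. Hspb1 holds GAAGTTTC 97 to 104 bases and GAACCTTC 77 to 84 bases before its start. Bag3 holds neither motif in this window. Among the members that were not called, Hsph1 holds TTCTCGAA 21 to 28 bases and Cdc37 holds TTCCAGAA 115 to 122 bases before the start, while Dnajb1, Hsp90aa1 and Hsp90ab1 hold no match. Hspa8, which fell, holds no match either. A match to either motif was thus present in 5 of the 10 windows, against 11.0% of the 15239 windows of tested genes. The nearly identical windows of Hspa1a and Hspa1b both count among these 5 and are not independent. Because the members were picked by name as heat shock genes, this share does not bear on KE against NT. A link between matches and the differences was not tested. In the other gene lists the share ran from 0% to 33.3%, the latter in microglia and macrophage markers. With either motif lengthened by 1 more alternating repeat, to 3 in all, 0 of the 10 windows matched and 0.394% of all windows did. A match is a description of the letters and not of binding, and other transcript starts of these genes were not searched.

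Hspa8 (ENSMUSG00000015656, chromosome 9, plus strand, 40711630 to 40731039) encodes HSC70, the constitutive HSP70. Its normalized counts were 70930, 68978 and 66414 in KE and 80173, 83832 and 81855 in NT. Every KE culture was below every NT culture, and the mean fell by 16.1% (log2FC -0.25, standard error 0.06, 95% confidence interval -0.39 to -0.11, adjusted p = 0.0062). Of the 31-base words of Hspa8, 22.8% are unique to it. The others occur mostly in processed pseudogenes, and 13 genes share at least 1% of the Hspa8 words. Among these, the long noncoding RNA gene Gm73825 (4.78% of the words) had no value here. The rest had summed means of 259 (KE) and 335 (NT).

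To rank the members by level, normalized counts were divided by the length of the canonical transcript. The other gene lists, markers included, were ordered and summed without this division. On this scale Hspa8 was the highest member in both groups, at 28728 ± 946 normalized counts per kb in KE and 34233 ± 765 in NT (SD, n = 3), followed by Hsp90ab1 at 23358 ± 298 and 24905 ± 1140 and Hsp90aa1 at 8329 ± 540 and 9125 ± 237. Neighbours in this order did not overlap in either group. Hspa1b (167 to 199 in KE, 37.1 to 60.6 in NT) and Hspa1a (142 to 151 and 34.1 to 37.0) were the lowest members, also in KE. The order of the 5 genes between them depended on whether transcript or coding length was used, and their mean levels lay between 449 and 1104 per kb in KE and between 253 and 730 in NT. Hspa1a and Hspa1b together made up 1.12% ± 0.0847 of the per-kb level of the 3 HSP70 members in KE and 0.242% ± 0.0294 in NT. The summed per-kb level of the 10 members was 63050 to 65420 in KE and 69289 to 72740 in NT, and 94.1% of it in KE and 96.0% in NT came from Hspa8, Hsp90ab1 and Hsp90aa1. With coding length in place of transcript length these shares were 87.7% and 90.4%.

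HSP70's partners moved in different ways. Bag3 (ENSMUSG00000030847, chromosome 7, plus strand, 128125283 to 128148705) encodes a nucleotide exchange factor that links HSP70 to small heat shock proteins and to autophagy of damaged proteins. It was 2821, 3012 and 2841 in KE and 1890, 1948 and 1901 in NT, with every KE culture higher and a spread within groups far smaller than the distance between them. The log2FC was 0.60 (standard error 0.06, 95% confidence interval 0.47 to 0.72, adjusted p = 7.4e-06). No 31-base word of Bag3 occurs in another gene's transcripts.

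Dnajb1 (ENSMUSG00000005483, chromosome 8, plus strand, 84334811 to 84339820), the J-domain partner of HSP70, was 1623, 1628 and 1510 in KE and 1394, 1512 and 1427 in NT. The groups overlapped, as KE replicate 3 lay just below NT replicate 2. The log2FC of 0.14 was not called (95% confidence interval -0.01 to 0.28, adjusted p = 0.10), and a rise above 0.28 is not excluded. Hsph1 (ENSMUSG00000029657, chromosome 5, minus strand, 149537636 to 149560156), which encodes the exchange factor HSP105, was 3631, 4198 and 3869 in KE and 4235, 4168 and 4432 in NT. KE replicate 2 was within the NT range and the other KE cultures were below it. The log2FC was -0.14 (95% confidence interval -0.28 to 0.01, adjusted p = 0.099). Without KE replicate 2 it was -0.19 with an adjusted p of 0.028, so this culture decides the call.

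The HSP90 genes and Cdc37 showed no called difference. Hsp90ab1 (ENSMUSG00000023944, chromosome 17, minus strand, 45878552 to 45891949), the constitutive HSP90 beta, was 63077, 63972 and 62362 in KE and 63836, 69694 and 68427 in NT. KE replicate 2 exceeded the lowest NT culture, and the log2FC was -0.09 (95% confidence interval -0.23 to 0.05, adjusted p = 0.25). Hsp90aa1 (ENSMUSG00000021270, chromosome 12, minus strand, 110656842 to 110669166), the more inducible HSP90 alpha, was 30689, 27212 and 30308 in KE and 33174, 31809 and 31652 in NT. All KE values were below all NT values, but the distance between the groups was smaller than the SD within KE, and the log2FC of -0.13 was not called (95% confidence interval -0.27 to 0.01, adjusted p = 0.10). Of its 31-base words, 41.6% are unique, and 5 genes share at least 1% of its words. Among these, the long noncoding RNA gene Gm72559 (18.2% of the words) had no value here. The rest summed to a mean of 105 in KE and 136 in NT.

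Cdc37 (ENSMUSG00000019471, chromosome 9, minus strand, 21044518 to 21061278) encodes the co-chaperone that delivers kinases, BRAF included, to HSP90. Its values were 5647, 5541 and 5055 in KE and 5114, 5639 and 5144 in NT. The groups were intermixed. Braf transcripts in the same KE cultures were 34933 to 40978 against 811 to 946 in NT, and a link between Braf and Cdc37 levels was not tested. The log2FC of Cdc37 was 0.03 (95% confidence interval -0.11 to 0.17, adjusted p = 0.71), and its sign turned without KE replicate 1 (-0.0003). The interval reaches from a fall of 0.11 to a rise of 0.17 on the log2 scale, and larger changes are not excluded.

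Hspb1 (ENSMUSG00000004951, chromosome 5, plus strand, 135916760 to 135918417) encodes HSP25, a small heat shock protein that keeps unfolding proteins soluble without ATP. It was 558, 642 and 504 in KE and 237, 243 and 216 in NT, with more than the whole NT range between the groups. The log2FC was 1.28 (standard error 0.11, 95% confidence interval 1.04 to 1.53, adjusted p = 3.8e-06), higher than that of 96.8% of tested genes. A processed pseudogene, Hsp25-ps1, holds 60.8% of its 31-base words and had means of 0.60 in KE and 0.34 in NT.

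**Figure D2:**
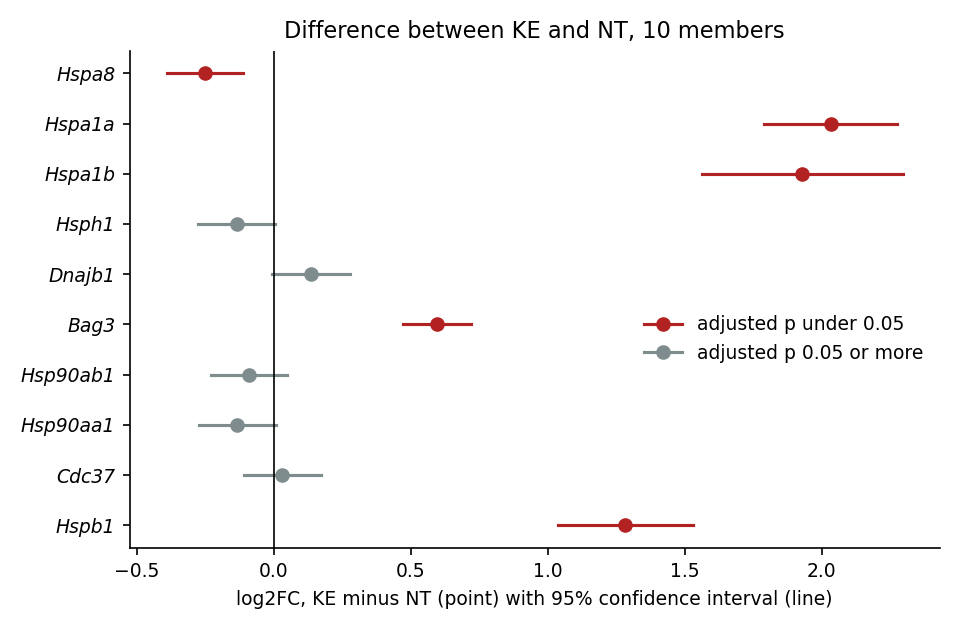
Log2FC (KE minus NT) of the 10 members from limma, with the 95% confidence interval as a line and called members in red. Hspa1a, Hspa1b, Hspb1 and Bag3 lie above 0 and Hspa8 below it, and the intervals of the other 5 include 0.

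**Figure D3:**
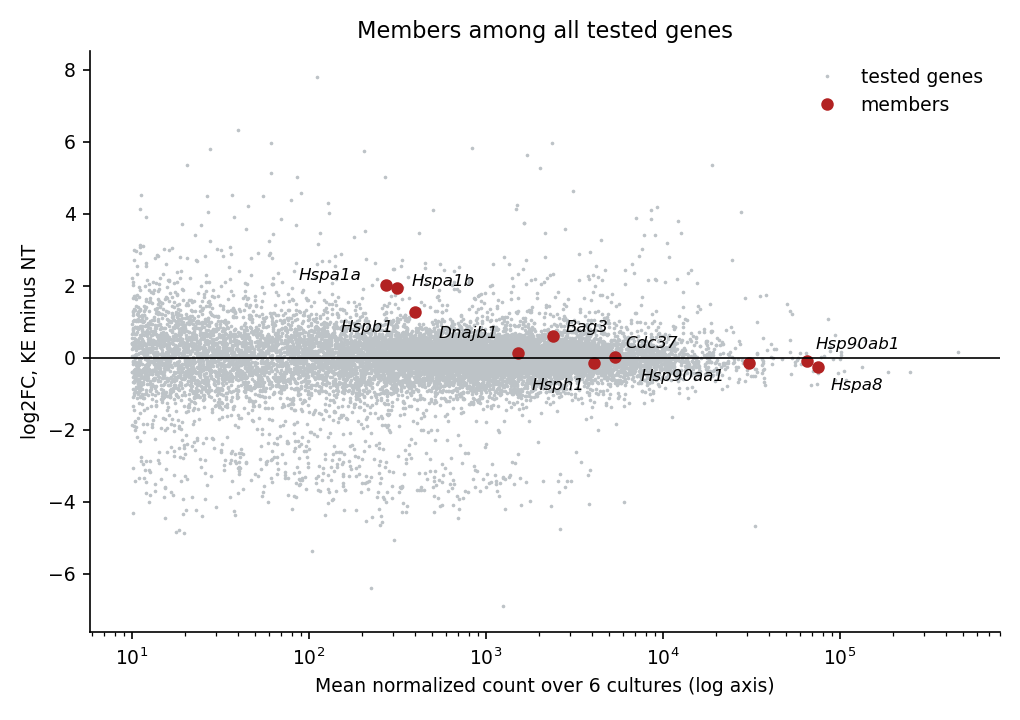
Log2FC (KE minus NT) against the mean normalized count over 6 cultures (log axis) for all 15280 tested genes (grey) and the 10 members (red). Hspa1a, Hspa1b and Hspb1 lie above most genes, at 2.03, 1.93 and 1.28, and Hspa8, Hsp90ab1 and Hsp90aa1, on the right, at -0.25, -0.09 and -0.13. Counts on this axis are not divided by length.

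Ratios between members within a culture do not depend on the scaling between cultures, and 6 were compared by an exact two-sided permutation test, which cannot give a p below 0.1 with 3 cultures against 3. The log2 ratio of Hspa1a plus Hspa1b to Hspa8 was -6.20 ± 0.11 in KE and -8.43 ± 0.17 in NT (SD, n = 3), a difference of 2.23 without overlap (exact p = 0.1, 0.2 after Benjamini-Hochberg adjustment over the 6 ratios). That of Bag3 to Hspa8 was higher in KE by 0.85 and that of Dnajb1 to Hspa8 by 0.39, both also without overlap and with the same exact p. Dnajb1 relative to Hspa8 was -5.46 to -5.41 in KE and -5.85 to -5.79 in NT, a narrow range in each group. Dnajb1 itself was not called (log2FC 0.14), and Hspa8, the denominator, was lower in KE (log2FC -0.25). Ratios that share Hspa8 as denominator are not independent. The difference was 0.12 for Hsph1 to Hspa8 (exact p = 0.3) and 0.14 for Cdc37 to the sum of Hsp90aa1 and Hsp90ab1 (exact p = 0.2), with overlap in both. For Hsp90aa1 to Hsp90ab1 it was -0.04 (exact p = 0.6), with log2 ratios of -1.11 ± 0.11 in KE and -1.06 ± 0.10 in NT, and this sign turned when KE replicate 2 or NT replicate 1 was left out.

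**Figure D4:**
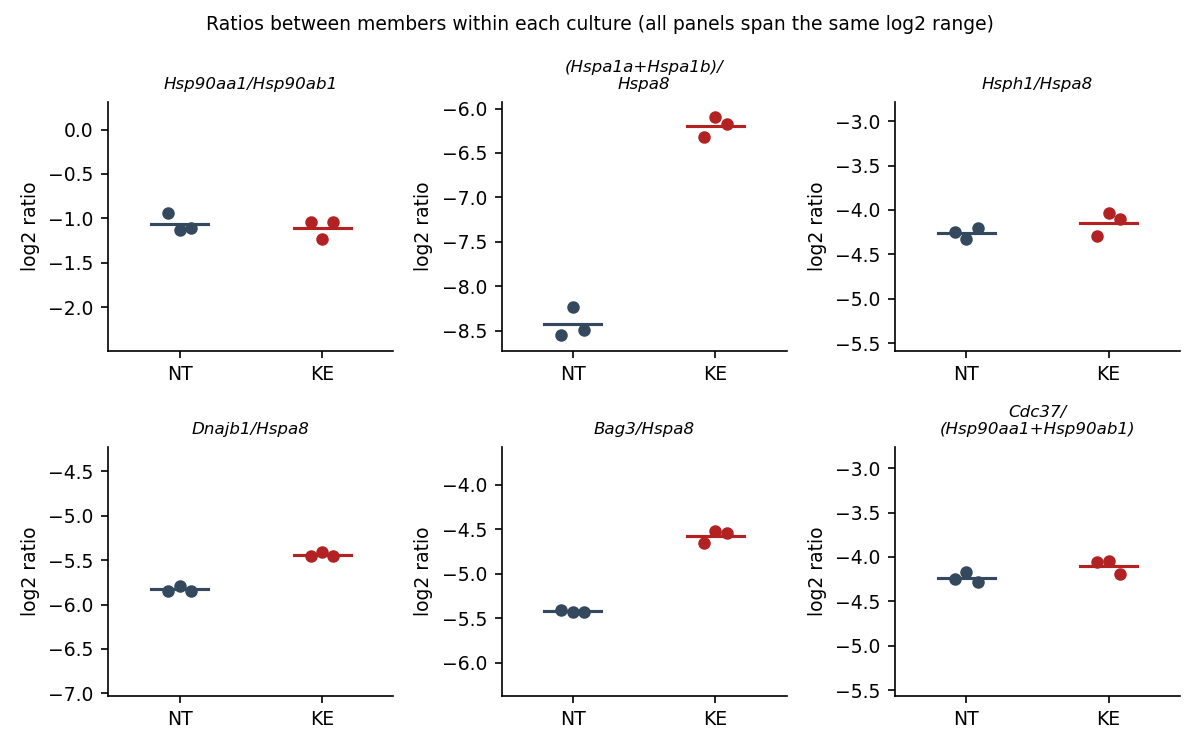
Log2 ratio between members in each culture (points) for NT and KE, with a line at each group mean; all panels span the same log2 range. KE and NT separate for the ratios of Hspa1a plus Hspa1b, Dnajb1 and Bag3 to Hspa8, and overlap for the other 3.

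Other genes of the chaperone network were listed by role. The list of heat shock factors also holds Hsbp1, which binds HSF1. Of its 3 tested genes, Hsf2 was called lower in limma (log2FC -0.22, adjusted p = 0.026). This call was lost when KE replicate 1, KE replicate 2, NT replicate 1 or NT replicate 3 was left out (adjusted p = 0.065 to 0.081). Hsbp1 had a log2FC of 0.13 (adjusted p = 0.11) and was called higher without KE replicate 3 (adjusted p = 0.046). The transcript of HSF1 itself, whose activity is controlled mainly on the protein, had means of 903 and 806 and a log2FC of 0.15 (adjusted p = 0.21). KE replicate 2 was the highest, at 1056 against 817 and 836 in the other KE cultures, and without it the log2FC was 0.04.

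Small heat shock proteins other than Hspb1 rose in 3 of the 4 genes tested, and the other was not called. Hspb8, which works in a complex with BAG3, was 9937, 9839 and 9993 in KE and 3947, 4285 and 4239 in NT (log2FC 1.26, adjusted p = 2.3e-08). The 6 values lie in 2 tight groups. Hspb6 (log2FC 0.64) and Cryab, which encodes alpha B crystallin (0.57), also rose, and Hspb2 was at 11.3 in both groups. The summed level of the list was 13596 to 14050 in KE and 6271 to 7031 in NT.

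Among 17 other HSP70, HSP110 and J-domain genes, 8 were called higher and 1 lower, with a median log2FC of 0.20. The largest rises were those of Hspa1l (log2FC 1.21), Dnaja4 (0.92) and Dnajb2 (0.67). Hspa1l was 34.3, 47.5 and 35.3 in KE and 14.8, 22.8 and 12.4 in NT, low values of a gene that shares sequence with Hspa1a and Hspa1b. Dnaja4, a cytosolic J-domain gene, was 674, 745 and 782 in KE and 392, 375 and 392 in NT. Hspa14, a ribosome-associated HSP70, was called lower (log2FC -0.26). The abundant genes of the list that were not called were Hspa13, Dnaja2, Dnajc7, Dnaja1 and Hspa4, with log2FC of 0.15, 0.06, 0.05, -0.08 and -0.14. Hspa13 was called higher without KE replicate 2 (adjusted p = 0.047), and Hspa4 lower without NT replicate 3 (0.044) and with quantile normalization (0.040). Of the smaller rises, that of Hspa4l was lost without NT replicate 1 (adjusted p = 0.069) and in limma without the variance trend (0.056). That of Dnajb6 was lost without KE replicate 1 (adjusted p = 0.069) or NT replicate 2 (0.064), with 75th percentile scaling (0.058) and without the trend (0.051).

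Of 8 other BAG proteins and HSP70 co-factors, 0 were called higher and 1, Bag2 (log2FC -0.44, adjusted p = 0.0041), was called lower in the limma fit; 0 were higher at an unadjusted p under 0.05 either. Bag1, Hspbp1, St13, Bag5, Bag6 and Stub1 were not called, with log2FC from -0.11 to 0.08. Stub1, which encodes the ubiquitin ligase CHIP, was called lower without KE replicate 2 (adjusted p = 0.038), and Bag4, named after its values were seen, without KE replicate 1 (adjusted p = 0.016).

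HSP90 co-chaperones other than Cdc37 were called lower in 8 of 14 genes and higher in 1, with a median log2FC of -0.19. The largest falls were those of Ahsa2 (log2FC -0.64), the immunophilin Fkbp5 (-0.60) and the immunophilin Fkbp4 (-0.54), and Unc45a, which folds myosin with HSP90, was higher (0.45). Fkbp4 was 4392, 4335 and 3845 in KE and 5672, 6254 and 6392 in NT, without overlap. The abundant co-chaperones Chordc1, Sugt1, Ppp5c, Cdc37l1 and Ahsa1 were not called, with log2FC of 0.16, 0.04, 0.03, -0.03 and -0.13, but Ahsa1 was called lower with quantile normalization (adjusted p = 0.042). The value of Chordc1 was 0.02 without NT replicate 3 and at most 0.24 with another culture left out. Of the smaller falls, that of Stip1 was lost without KE replicate 3, NT replicate 2 or NT replicate 3 (adjusted p = 0.061 to 0.073) and that of Nudc without KE replicate 1, KE replicate 3, NT replicate 2 or NT replicate 3 (0.063 to 0.13).

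The chaperonin TRiC, a ring that folds actin and tubulin, and its partner prefoldin had 8 of 14 genes called lower and 1 higher, with a median log2FC of -0.20. Cct6a (log2FC -0.43), Tcp1 (-0.39) and Cct2 (-0.36) fell most, and Cct6a was 10541, 10073 and 10435 in KE and 14288, 13403 and 14148 in NT. Pfdn1 was higher (0.27), and Cct7, Pfdn2 and Pfdn5 were not called, with log2FC of -0.09, -0.05 and 0.05. The call of Cct4 was lost in 5 of the 6 fits that left out a culture (all but NT replicate 2, adjusted p = 0.067 to 0.14) and that of Vbp1 in 4 (without KE replicate 2 or 3, or NT replicate 1 or 3, 0.056 to 0.13). Pfdn6 (log2FC -0.21) was not called, but was called lower without NT replicate 1. Among 7 organelle heat shock proteins, the mitochondrial Hspd1 (HSP60) and the endoplasmic reticulum gene Hsp90b1 were called lower (log2FC -0.47 and -0.20) and the mitochondrial Hspa9 higher (0.35). Hspa5, Hyou1, Hspe1 and Trap1 were not called, with log2FC of -0.07, -0.08, -0.16 and 0.07. Hsp90b1 was not called without KE replicate 2 (adjusted p = 0.062) or NT replicate 1 (0.056), and Hspe1 was called lower without KE replicate 1 (0.028). Against 25.3% of tested genes called higher, the lists of small heat shock proteins and of HSP70 and J-domain genes held more calls upwards. Against 26% called lower, those of HSP90 co-chaperones and of TRiC and prefoldin held more calls downwards. The lists were chosen with earlier results of these data known, which can shape these contrasts, and no list was tested as a set.

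**Figure D5:**
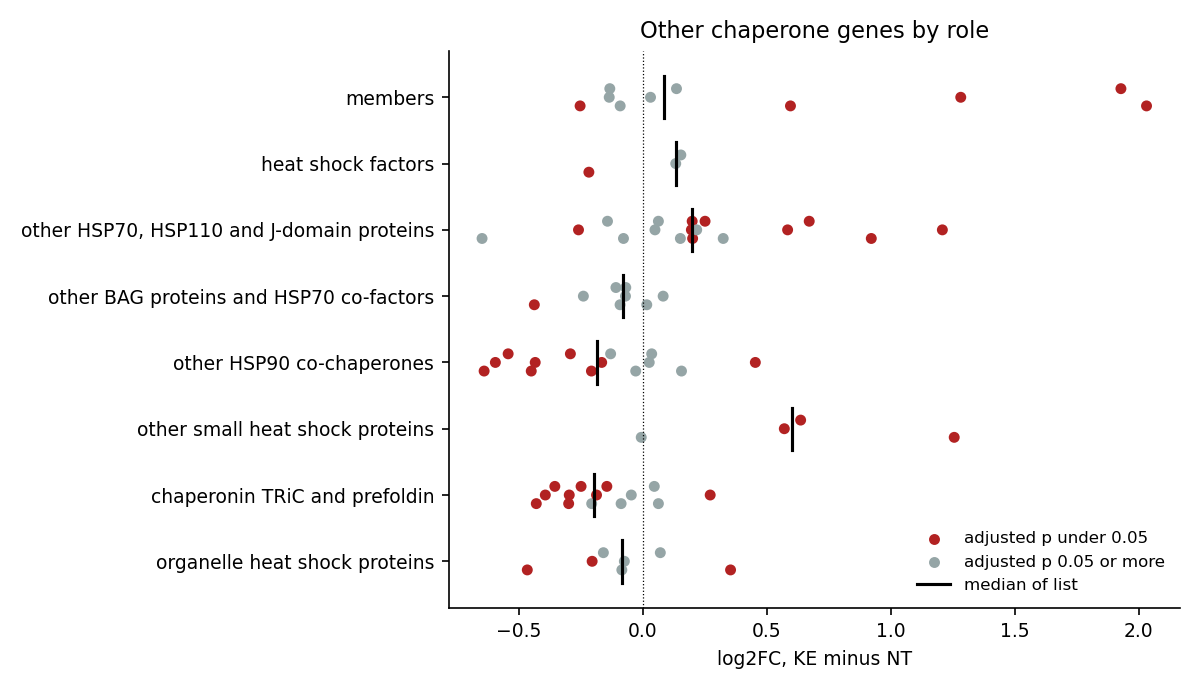
Log2FC (KE minus NT) of each tested gene of the members and of 7 lists of other chaperone genes, with called genes in red and the list median as a vertical line. The medians were 0.60 for other small heat shock proteins, 0.20 for other HSP70 and J-domain genes, -0.19 for other HSP90 co-chaperones and -0.20 for TRiC and prefoldin.

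The gene nearest to each member in its profile over the 6 cultures was found as the smallest root mean square difference of log2 values centred on the NT mean. It was Gem for Hspa1a (0.063), Ldhd for Hspa1b (0.094), Cst3 for Hspb1 (0.033) and Nhlrc1 for Bag3 (0.016). For the members near or below 0 it was Cmas for Hspa8 (0.019), Lpcat3 for Hsph1 (0.022), Eno1 for Dnajb1 (0.019), Lrrfip1 for Hsp90aa1 (0.014), Smpdl3b for Hsp90ab1 (0.013) and Creld2 for Cdc37 (0.012). With 6 cultures in 2 groups, such likeness rests mostly on the size of the group difference, and the nearest gene of each member was not another member.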

How the data were processed

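The mRNA of 6 cultures was sequenced after a stranded library preparation. Per the labels and the supplemental methods, reads were trimmed with Trim Galore, aligned with STAR and quantified with Salmon, and the authors deposited a normalized signal, that is, estimated gene counts divided by DESeq2's size factors. The methods name GRCm39 with Gencode vM28 for mouse, whereas the submitters' processing notes list GRCh38; the table holds mouse identifiers, and 54749 of 55357 are in Gencode vM39 on GRCm39, which was used here. Versions of Trim Galore, STAR and Salmon and the strand setting of the counting are not given in the sources used here, and the batches that the methods mention are not named, so none was modelled.

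Normalized counts were log2-transformed after adding 1 and fitted with limma 3.58.1 (R 4.3.3, group as the only factor, variance trend) in the 15280 genes whose mean reached 10. Two-sided p-values were corrected by the Benjamini-Hochberg method across these genes, with a threshold of 0.05. Ratios between members were compared by exact permutation over cultures. The fit was tested on simulated data beforehand. Whole reads could not be recovered, since only 69.6% to 73.8% of the low values were whole multiples of the commonest one (tolerance 0.1), so depth is known approximately and no count test was run.

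The members and the gene lists were chosen with earlier results of these data known. Named are the members, Braf, the 3 called genes of each chaperone list with the largest absolute log2FC in each direction, genes of those lists with a mean of at least 1000 that were not called, the 3 highest genes of each marker list (1 of them is not reported here), and the gene nearest to each member. Hsf1, Hspb2, S100b, Gja1, Aqp4, Nefl and the genes whose call turned with 1 culture left out were added after their values were seen. Alternatives were pseudocounts of 0.5 and 5, other filters, quantile or 75th percentile scaling, no variance trend, a replicate block, each culture left out, and Hspa1a and Hspa1b summed. Figures were drawn with matplotlib 3.10.9.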

Additional observations from a re-analysis of the deposited data

How the results depend on the processing

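The 4 rises (Hspa1a, Hspa1b, Hspb1, Bag3) and the fall of Hspa8 were called under each alternative, with log2FC of 1.97 to 2.13, 1.77 to 2.12, 1.19 to 1.37, 0.57 to 0.61 and -0.28 to -0.21. Members called lower numbered 1 to 2 when each culture was left out, since Hsph1 (-0.190 to -0.0857) was called without KE replicate 2; Cdc37 ranged from -0.000305 to 0.0795 and the log2 ratio of Hsp90aa1 to Hsp90ab1 from -0.0762 to 0.0225. Of 456 comparisons of a main value or count with an alternative, 437 were the same. For a gene this meant the same direction and call, and for a count a value within 1.5 times. A ratio had to keep its direction and differ by no more than the larger group SD.

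The counts that moved were small ones. With each culture left out, the heat shock factor list had 0 to 1 genes called higher (Hsbp1, without KE replicate 3) and 0 to 1 lower. The same fits gave 1 to 2 other HSP70 and J-domain genes lower, 1 to 2 other BAG proteins and co-factors lower, and 1 to 3 organelle heat shock proteins lower. Quantile normalization gave 2 other HSP70 and J-domain genes lower, a mean of at least 50 gave 2 BAG proteins and co-factors lower, and limma without the trend gave 1 organelle protein lower; the cause was not tested. Among the named genes that were not called, the sign turned with a culture left out for Dnaja2 (-0.0253 to 0.121), Hspbp1 (-0.0639 to 0.0764), Ppp5c (-0.0263 to 0.0783, and -0.00215 with quantile normalization), Cdc37l1 (-0.0875 to 0.0256), Sugt1 (-0.0350 to 0.122), Hspb2 (-0.194 to 0.295) and Pfdn2 (-0.115 to 0.0287). Of 935 comparisons for single genes of the lists, 35 lost and 15 gained a call. Apart from left-out cultures, quantile normalization gained Hspa2, Hspa4, Ahsa1 and Hspa5, the mean of at least 50 gained Bag4, and limma without the trend gained Hspa2 and lost Hspa4l, Dnajb6, Stip1, Nudc, Cct4, Vbp1 and Hsp90b1. Scaling to the 75th percentile lost Dnajb6 and Cct4, and no filter lost Cct4.

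Replicate numbers 1 to 3 recur in KE and NT. Deviations of same-numbered KE and NT cultures correlated at 0.0589, 0.0664 and 0.0651 across genes, under the 0.1 required here to treat them as pairs, although each culture correlated best with its own number. A fit with the replicate block called 8046 genes in place of 7844, the members again gave 4 rises and 1 fall, other HSP70 and J-domain genes called higher numbered 9 in place of 8 (Hspa13 gained, adjusted p = 0.034), and other BAG proteins and co-factors called lower numbered 2 (Bag4 gained). Depth limits the values of Hspa1l and Hspb2, which are low counts.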

Other observations

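Of the chaperone genes listed, Hspd1 and Hspe1 were the only ones with a run of 3 adjoining heat shock repeats in the 250 bases before the transcript start, a window type matched by 60 of 15239 tested genes. The canonical transcripts of both start close together on opposite strands of chromosome 1, so their windows overlap and are not independent. Hspd1 was lower in KE (15125, 14246 and 14630 against 20506, 19768 and 20506 in NT, log2FC -0.47), and Hspe1 had a log2FC of -0.16 (adjusted p = 0.084 from limma).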
